A study of Mus musculus with 15 samples.

Results

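A set of 198 mouse piRNA loci had reads in every input library of a pseudouridine immunoprecipitation and was nearly missing from both the antibody-bound and the unbound RNA. A locus here is a genomic interval with a strand and a number of reads, so that piRNAs with the same 5′ end and different 3′ ends are separate loci. The loci were chosen by their read counts: at least 60 counts summed over the 3 input libraries with at least 10 in each, at most 6 counts summed over the 3 Ψ-IP libraries, and at most 6 summed over the 3 flow-through libraries. Of the 8128951 loci with a count in any of the 15 libraries, 142306 met the input part of the rule, of which 3042 were at or under the Ψ-IP limit, 2800 at or under the flow-through limit, and 198 under both. Absent in the strict sense held for 1 locus only, which had no count in either fraction, and the others had a few. Because these counts selected the members, their levels in input, Ψ-IP and flow-through are given as a description and were not tested.

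Small RNA came from the testes of C57Bl/6 male mice aged 8 weeks and was sequenced in 3 libraries for each of 5 groups. Input, Ψ-IP (RNA bound by an antibody against pseudouridine, Ψ, and eluted with Ψ triphosphate) and flow-through (the unbound RNA) were made with the NextFlex small RNA kit. The CMC-treated group and its control without CMC, which the labels call untreated in one place and mock-treated in another, were made with the NEBNext kit. Nothing in the sources used here says whether the 3 libraries of a group came from different mice, so that p-values measure the spread between libraries, which may be technical. RNA was cut from a gel, at 17 to 40 nt by the labels. The paper's methods for Ψ-IP give 20 to 30 nt instead, a range that leaves out the 19-nt loci described below and those above 30 nt. The files hold counts at piRNA loci only, so the labelled tissue could not be checked against marker genes. Library totals ranged from 11575705 to 25063656 counts in the 9 libraries of the immunoprecipitation and from 24154811 to 58399368 in the 6 mock-treated and CMC-treated libraries.

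piRNAs are germline small RNAs that guide PIWI proteins. In the mouse testis most derive from long single-stranded transcripts of pachytene clusters, start with U, and are bound by MILI or by MIWI, which holds slightly longer piRNAs. When a PIWI protein cuts a transcript, the cut falls opposite positions 10 and 11 of its guide, a new piRNA can begin at the cut, and a 19-nt piece from just upstream of the cut has been described as a by-product. Ψ is an isomer of uridine. CMC is a carbodiimide that binds Ψ and stops reverse transcriptase, so that a pseudouridylated RNA is expected to be lost from CMC-treated libraries.

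A genomic sequence could be read for members that lie wholly inside annotated exons (34 of 198, from GENCODE transcripts of GRCm38, the assembly also called mm10). The 8 of these with the most input counts are shown 5′ to 3′ with the first base in capitals, because a first T, the DNA letter for U, is the usual mark of a piRNA.
chr17:27361332-27361355, plus strand, exon of the noncoding gene Gm49794: Tagcaaaagagcatgatttaaaac
chr17:27364473-27364497, plus strand, another part of Gm49794: Aagtagaaggatctgaacctccctc
chr10:86571994-86572019, minus strand, antisense to an exon of Gm48450: Caacttgatgtttctttctgaatcta
chr17:66195182-66195200, plus strand, exon of CT025671.4: Atgtagagactcttcagga
chr13:53402629-53402657, plus strand, exon of Gm2762: Tgactgtagctgacttgaggtcagactgc
chr17:27357420-27357445, plus strand, a further part of Gm49794: Gagctctatcgggtttctgaaccctg
chr17:27326779-27326804, plus strand, exon of Gm10505: Taacaaaatgatcgttgtaattgtga
chr10:62664694-62664712, minus strand, coding exon of Stox1: Tcagaagaactaagtagaa
Among the 34 sequences 26 began with T (76.5%), 4 with C, 3 with A and 1 with G. The other 86992 loci whose summed input counts fell in the range of the members (60 to 166) began with T in 92.4% of the 11900 that could be read. Of the 29 members of at least 24 nt with a sequence 24 began with T, and of the 4 that were 19 nt long 1 did. These shares describe loci inside exons only.

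Members had at least 10 counts in each input library by the rule. Their summed input count ranged from 60 to 166 with a median of 68. Summed over all members, the level in input was 250, 200 and 263 CPM (counts scaled to a library total of 1000000) in replicates 1, 2 and 3. In Ψ-IP it was 14.7, 19.5 and 11.3 CPM, and in flow-through 5.72, 17.3 and 21.7 CPM. The input values lay above all values of both fractions, as the rule required. The first flow-through library stood below the other two, with a count at 54 members against 133 and 134. At the depth of the libraries, 60 input counts correspond to 46.8 counts in Ψ-IP and 53.9 in flow-through, whereas the median member had 4 in each. In Ψ-IP 17 members had no count and in flow-through 18 had none. The RNA was bulk, so the cells that carried each of these RNAs are not known.

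**Figure D1:**
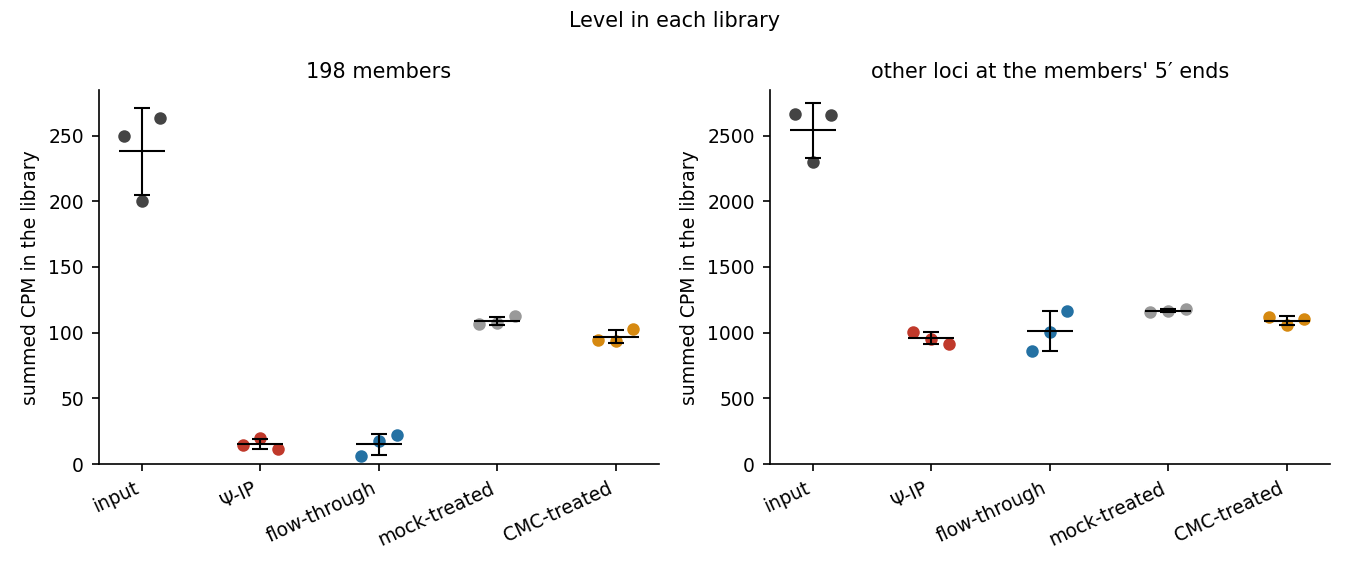
Summed CPM of the 198 members (left) and of all other loci that share their 5′ ends (right) in each of the 15 libraries, as points, with the mean and SD of 3 libraries as bars. Members were at 238 ± 33.2 CPM in input and near 15 CPM in both fractions, and the other loci at the same 5′ ends were also highest in input.

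Many members sat near the limits of the rule. At the lowest allowed input sum of 60 there were 18 members, and 61 had 60 to 64 counts, while 16 loci with 59 met the rest of the rule. The Ψ-IP limit was reached by 32 members, and 37 loci missed it by 1 count. The flow-through limit was reached by 47 members and 48 loci missed it by 1 count. Only 13 members had 100 or more input counts. The size of the set also turned on single libraries: the same rule with sums scaled to the libraries left gave 105 loci without input replicate 1, 485 without input replicate 2, 331 without flow-through replicate 2 and 304 without flow-through replicate 3.

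The 6 members with the most input counts show the pattern at single loci. A 30-nt locus at chr9:67712890-67712919 (minus strand, outside genes) had 88, 26 and 52 counts in input, 0, 0 and 3 in Ψ-IP, and 0, 4 and 0 in flow-through. A 26-nt locus about as abundant, chr9:67733612-67733637 on the minus strand, had 75, 32 and 54 counts in input, 1, 1 and 2 in Ψ-IP, and 0, 1 and 0 in flow-through. At chr5:149818469-149818496 (minus strand, 28 nt) the input counts were 81, 28 and 45, with 0, 3 and 2 in Ψ-IP and 3, 0 and 0 in flow-through. In all of these each input library was above each library of the fractions, as the rule required of every member. In the mock-treated libraries, which had larger totals, these 3 loci had 4, 9 and 3 counts, then 1, 3 and 0, then 0, 2 and 0.

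The other 3 of the 6 differed in how they appeared elsewhere. One was a 30-nt locus inside an ORR1A4-int element, an LTR retroelement of the ERVL-MaLR family, at chr14:44942495-44942524 on the plus strand in an intron of Gm16976. It had 71, 31 and 40 counts in input, 2, 0 and 1 in Ψ-IP, 0, 0 and 3 in flow-through, and 15, 14 and 7 in the mock-treated libraries. A 26-nt locus at chr5:113353230-113353255 on the plus strand had 49, 35 and 41 counts in input, 0, 1 and 4 in Ψ-IP and 0, 3 and 2 in flow-through. It was a minor form of an abundant piRNA, since the other loci at its 5′ end had 4347 input, 2747 Ψ-IP and 1106 flow-through counts. A 32-nt locus on chromosome 18 had 39, 32 and 43 counts in input, 0, 3 and 0 in Ψ-IP and 1, 2 and 1 in flow-through. This last one was well covered by the mock-treated libraries, with 33, 62 and 69 counts.

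Where the ends carried enough reads to compare, the low recovery was shared by other loci with the same ends but not by the surrounding piRNAs. Of the 198 members, 183 (92.4%) had another locus at exactly the same 5′ end with a count in Ψ-IP or flow-through, against 99.9% of the other loci of like input. For the 155 members whose 5′ end carried at least 60 further input counts, those other loci had a median Ψ-IP to input ratio of CPM of 0.222 and a flow-through to input ratio of 0.27. Most members of 19 nt had fewer further counts at their 5′ end and are outside these ratios. The same medians over other loci of like input were 0.851 and 0.724. At a shared 3′ end the medians were 0.219 and 0.288 for 91 members, compared to 0.81 and 0.595. Loci on the same strand within 500 nt that did not overlap the member had medians of 0.942 in Ψ-IP and 1.03 in flow-through, close to the 1.00 and 0.992 around the other loci. None of the 155 had its other loci under both limits as well. Reads at one 5′ end come from the same fractions as the rule, so these ratios are not independent of it and were not tested.

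**Figure D2:**
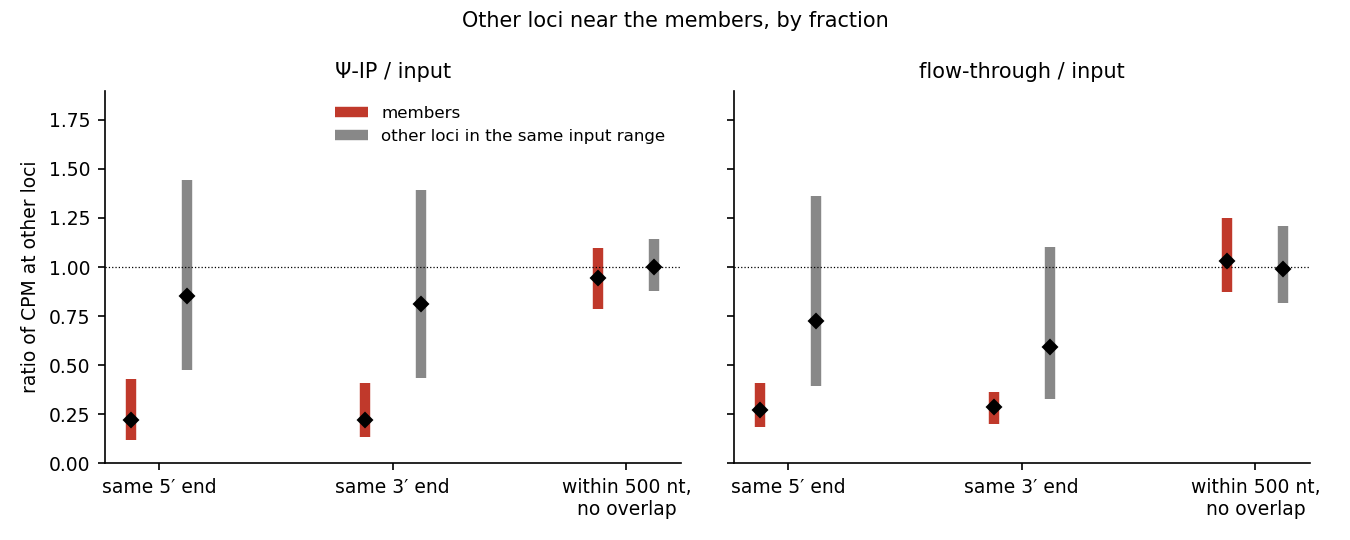
Ratio of CPM in Ψ-IP (left) and flow-through (right) to CPM in input at loci that share the 5′ end, share the 3′ end, or lie within 500 nt without overlap. Bars run from the lower to the upper quartile and diamonds are medians. For members the ratios at shared ends were near 0.2 to 0.3, while neighbouring loci were near 1.

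In sum over the libraries, the other loci at the members' 5′ ends had 2661, 2297 and 2660 CPM in input, 1005, 955 and 912 CPM in Ψ-IP, and 863, 1006 and 1164 CPM in flow-through. In mock-treated libraries they had 1156, 1163 and 1180 CPM, with 22106, 13718 and 9647 counts at the 3 highest ends. The median mock-treated to input ratio of CPM was 0.0724 over the 155 members above, against 0.196 for other loci of like input, so that the sum does not describe the typical end. At a shared 3′ end the medians were 0.084 and 0.188. Of the members 82 (41.4%) were themselves the most abundant input form of their 5′ end, 97 (49%) were shorter than that form and 19 (9.6%) longer. Among other loci of like input the shares were 37.7%, 37.4% and 24.9%. The 198 members had 194 distinct 5′ ends, and 19 of them overlapped another member, in 9 groups, so they are not all separate RNAs. In the largest overlapping group, 3 members of 31, 30 and 26 nt began at positions 69913540, 69913543 and 69913547 on the plus strand of chromosome 7, with 79, 70 and 62 input counts.

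The members were short for piRNAs. The median length was 28 nt, against 30 nt for the other loci of like input. In the range from 29 to 31 nt, around the lengths that MIWI binds, there were 69 members (34.9%) compared to 61.2% of the other loci. From 24 to 28 nt, around MILI-bound lengths, there were 83 (41.9% against 28.5%), and 32 nt or longer 14 (7.07% against 9.26%). At 23 nt or less there were 32 members (16.2% against 1.14%). Of these 32, 22 had a length of exactly 19 nt, which was 11.1% of members and 0.332% of the other loci.

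**Figure D3:**
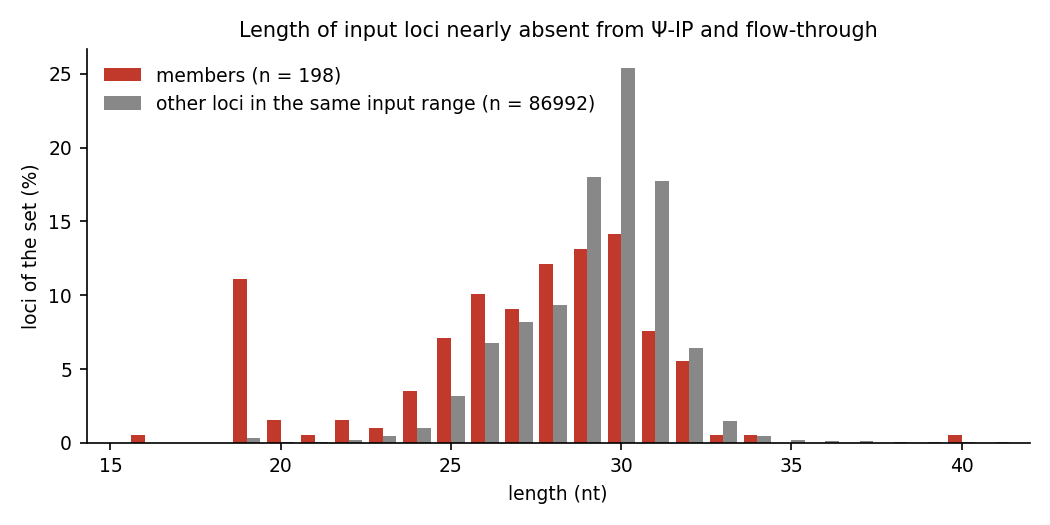
Share of loci at each length, for the 198 members and for the 86992 other loci with 60 to 166 input counts. Members had a separate peak at 19 nt (22 loci) and fewer loci than the comparison from 29 to 31 nt.

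Of all 390 loci of 19 nt that met the input part of the rule 5.64% were members, against 0.124% of loci of all other lengths together. The share was also high at some other short lengths with few loci, with 3 of 61 at 20 nt (4.92%) and 1 of 29 at 16 nt (3.45%), while at 22 nt it was 3 of 224 (1.34%). The remaining 368 of 19 nt were also lower in both fractions. Their summed level was 1020, 782 and 1113 CPM in input, 445, 421 and 358 CPM in Ψ-IP and 405, 438 and 385 CPM in flow-through. All reads of this length together made up 0.466% ± 0.073 of counts in input, 0.213% ± 0.0255 in Ψ-IP and 0.269% ± 0.0194 in flow-through (SD, n = 3 each). The 3 groups of values for all 19-nt reads did not overlap between input and the fractions, and other lengths were not compared in this way. Over all loci meeting the input part of the rule, median ratios of CPM to input at 19 nt were 0.181 in Ψ-IP and 0.278 in flow-through. They were 0.346 and 0.349 at 20 nt, 0.698 and 0.58 at 26 nt and 0.841 and 0.662 at 30 nt. Flow-through ratios at 41 to 44 nt were above 1. The mock-treated libraries had 0.775% ± 0.117. These differences belong to the contrast that the rule used and were not tested.

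Most 19-nt members had a longer piRNA at 1 of 2 fixed distances. Counted from the 5′ end of the 19-nt RNA, 15 of the 22 had a piRNA locus of at least 24 nt with at least 20 input counts on the opposite strand whose 5′ end was 28 nt downstream. In 9 of the 22 a piRNA on the same strand began 19 nt downstream, that is, at the next base after the 19-nt RNA. These are the positions of the guide and of the piRNA that begins at the cut, whose 5′ ends overlap by 10 nt. Both partners were found for 8 members and neither for 6. These counts depended on the minimum for the partner. With partners of 1 or more input counts, chosen after seeing the data, 20 of the 22 had the opposite-strand and 19 the same-strand partner and 1 had neither, while at 60 or more the counts were 13, 6 and 8. With the minimum of 20, the 368 other 19-nt loci had the opposite-strand partner in 59.5% and the same-strand partner in 47.6% of cases, and in 79.3% and 86.7% with partners of 1 or more counts, so this arrangement was common to 19-nt loci. At no other distance from 10 nt upstream to 45 nt downstream did more than 6 of the 22 have an opposite-strand partner.

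**Figure D4:**
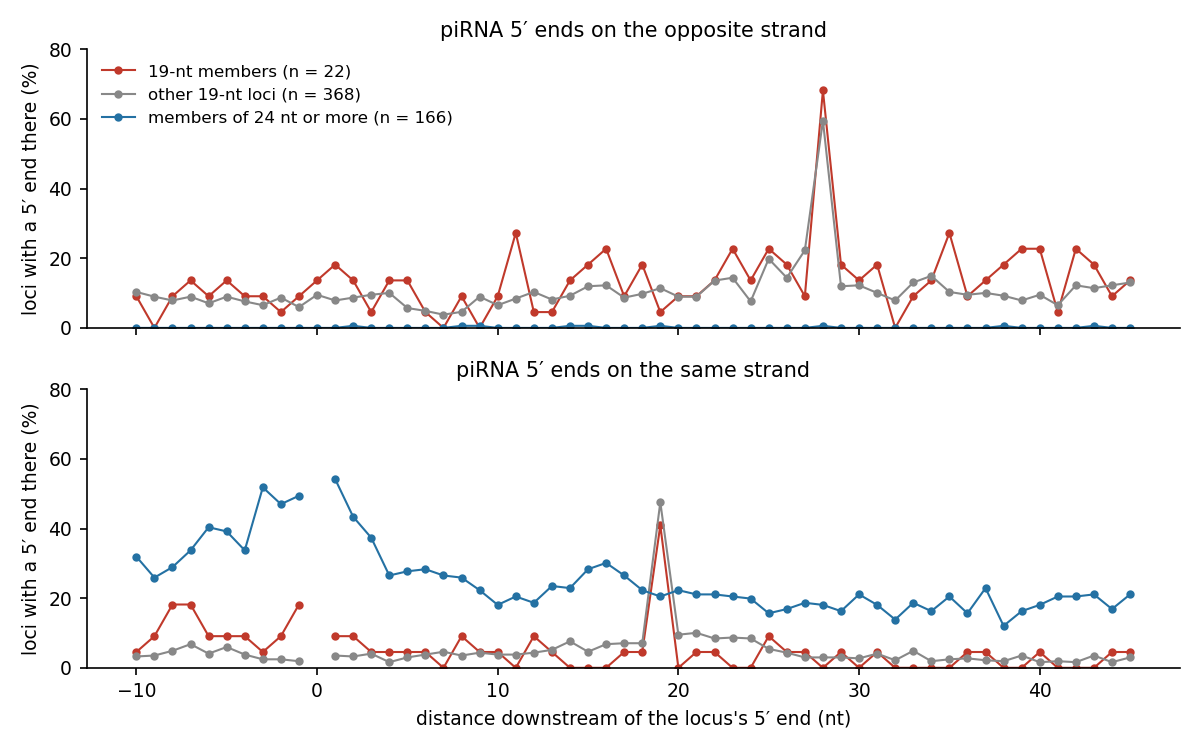
Share of loci with the 5′ end of a piRNA of at least 24 nt and at least 20 input counts at each distance from their own 5′ end, on the opposite strand (top) and the same strand (bottom, position 0 left out). The 22 members and 368 other loci of 19 nt had peaks at 28 nt on the opposite strand and at 19 nt on the same strand, which the 166 members of at least 24 nt did not have.

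In Stox1, which encodes a storkhead-box DNA-binding protein, all 3 RNAs lay inside the same exon and could be read. They are shown with the 10 bases that pair between the longer piRNAs in capitals, and the 10 bases at the start of one were the reverse complement of those of the other.
19-nt member, chr10:62664694-62664712, minus strand: tcagaagaactaagtagaa
opposite strand, chr10:62664684-62664714, plus strand: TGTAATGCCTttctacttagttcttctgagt
next base, chr10:62664660-62664693, minus strand: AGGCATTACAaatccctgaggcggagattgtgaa
The 19-nt member had 33, 17 and 31 counts in input, 0, 0 and 0 in Ψ-IP, and 0, 0 and 2 in flow-through. The opposite-strand piRNA, the most abundant length at its 5′ end, had 356 counts in input, 400 in Ψ-IP and 107 in flow-through, and the same-strand RNA had 33, 12 and 50. In the mock-treated libraries the 19-nt RNA had 23, 38 and 23 counts. The rule fixed the low Ψ-IP and flow-through counts of the member and did not select its partners, so these values are a description only.

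A like arrangement was read in the noncoding gene CT025671.4 on chromosome 17.
19-nt member, chr17:66195182-66195200, plus strand: atgtagagactcttcagga
opposite strand, chr17:66195182-66195210, minus strand: TCACAGAAGAtcctgaagagtctctacat
next base, chr17:66195201-66195238, plus strand: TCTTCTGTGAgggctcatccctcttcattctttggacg
This 19-nt RNA had 44, 24 and 26 counts in input, 0, 1 and 2 in Ψ-IP, and 2, 2 and 2 in flow-through. The opposite-strand piRNA had 494 counts in input, 54 in Ψ-IP and 279 in flow-through. The same-strand RNA was rare, with 10, 8 and 6. With 128, 220 and 204 counts the 19-nt RNA was itself more abundant in mock-treated libraries than this form of the opposite-strand piRNA, which had 57 counts over the 3.

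Summed over the 15 opposite-strand partners, all lengths of at least 24 nt included, the level was 169 CPM in input, 103 in Ψ-IP and 73 in flow-through. The 15 members opposite them were at 17.8 CPM in input, 1.04 in Ψ-IP and 1.1 in flow-through. The partners were unequal in abundance, with 25 to 4538 input counts. The same pair of longer piRNAs on chromosome 9 accounted for 2 members, at chr9:67711894-67711912 on the plus strand and chr9:67711923-67711941 on the minus strand, which had 60 and 79 input counts. The 19-nt members on chromosome 4 (4 of the 22, from 42027558 to 42790246) and chromosome 13 (3, from 50371043 to 50909101) had similar input counts within each region, from 60 to 67 and from 67 to 70. On chromosome 4, the loci at chr4:42027558-42027576 and chr4:42245245-42245263 had 27, 14 and 25, and 28, 14 and 25 counts in input. Both had 4, 3 and 1 counts in the mock-treated libraries, where the other 2 on this chromosome had 1, 0 and 2, and 4, 1 and 2. In the mock-treated libraries the 3 on chromosome 13 differed, with 73, 11 and 83 counts. How reads with several alignments were counted is not given in the sources used here, so that single positions there are uncertain.

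Most members lay outside annotated genes. By the GENCODE annotation 126 were outside genes (63.6%, against 65.8% of the other loci of like input), 31 in introns, 23 in exons of noncoding genes, 5 in untranslated regions and 3 in coding exons, with 10 antisense to introns or noncoding exons. The gene with most members was Cyp19a1, which encodes aromatase, with 8 on its sense strand in introns. When loci meeting the input part were joined across gaps of up to 10000 nt, the members fell into 61 of 260 blocks, and 191 (96.5%) were in blocks of 10 or more loci, as were 99.7% of all loci meeting the input part. The block at chr17:27290532-27366540 held 15 members of 12078 loci (0.124%). Blocks at chr12:98382290-98454774 and chr2:92540284-92607900 held 13 of 6931 (0.188%) and 12 of 7976 (0.15%). Over all loci meeting the input part the share was 0.139%. In the 23 blocks with at least 3 members it ran from 0.0686% to 1.09%, and was highest at chr6:128443071-128449416, with 3 of 276 loci. At chr17:66171250-66231446 it was 0.331%, or 9 of 2723. The block that holds the 8 Cyp19a1 members had 5202 loci (0.154%). These shares were not tested. The authors took piRNA reads from known piRNA clusters, so that the grouping into blocks follows in part from how the reads were chosen.

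Repeats held 22 members (11.1%, against 13.8% of other loci of like input). LTR retroelements accounted for 14 of these, 6 from ERVL-MaLR, 5 from ERVK, 2 from ERV1 and 1 from ERVL. There were 5 in LINEs, 2 in DNA transposons of the hAT-Charlie family and 1 in a SINE. An example is a 32-nt locus inside RLTR9A3, an ERVK element, at chr2:92565151-92565182 on the plus strand. It had 51, 20 and 37 counts in input, 0, 2 and 0 in Ψ-IP and 0, 3 and 1 in flow-through.

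The mock-treated libraries, which the rule did not use, contained most of the members at a lower level than input. A count was found for 162 of the 198 (81.8%, 95% Wilson interval 75.9 to 86.6%, counting error only) and for 92.8% of the other loci of like input. In all 3 mock-treated libraries a count was found for 114 (57.6% against 73.2%). The median level over the summed libraries was 0.0522 CPM for members and 0.172 for the other loci, compared to 1.12 and 1.504 CPM in input. There were 16 members (8.08%) with more CPM in mock-treated libraries than in input, and 19.9% of the other loci. Kits differed between the sets, so input was not tested against mock-treated libraries.

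Mock-treated levels differed between length classes and in each rested in part on 1 locus. The median member had a summed mock-treated count of 22.5 at 19 nt, 9 at 24 to 28 nt, 4 at 29 to 31 nt and 0 at 32 nt or more, so the sums below do not describe the typical member. The 22 members of 19 nt had 16.9, 19.1 and 23.1 CPM in mock-treated and 26.4, 21.6 and 28.3 CPM in input libraries, and the locus at chr9:67711923-67711941 alone gave 1073 of their mock-treated counts. Without it the other 21 had 10.3, 11.3 and 13.6 CPM. The 368 other 19-nt loci had 689, 735 and 891 CPM in mock-treated libraries beside the 1020, 782 and 1113 CPM in input given above, so that a mock-treated level somewhat below input was not particular to the members. All 22 had a mock-treated count. The 83 members of 24 to 28 nt had 61.5, 60.1 and 60.8 CPM in mock-treated libraries and 103.9, 84.97 and 110.6 CPM in input, and 45.9, 45.8 and 45.8 CPM in mock-treated libraries without the locus at chr12:98400222-98400249. Members of 29 to 31 nt had 25.7, 25.2 and 25.2 CPM in mock-treated libraries and 88.7, 69.8 and 91.6 CPM in input. In that class the locus at chr2:92594806-92594834 gave 1841 counts, and without it the mock-treated level was 12.49, 11.47 and 10.96 CPM. At 32 nt or more 6 of 14 had a mock-treated count, and their level was 1.04, 1.23 and 1.82 CPM compared to 19.3, 14.5 and 19.7 CPM in input. A single member on chromosome 18 gave 164 of these mock-treated counts, and without it the other 13 had 0.112, 0.171 and 0.0998 CPM. The mock-treated and CMC-treated files hold no locus longer than 33 nt, which leaves out 2 members.

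The 3 members with most mock-treated reads were far above their input level. A 28-nt locus at chr12:98400222-98400249 on the minus strand was at 15.0 ± 0.613 CPM in mock-treated libraries (SD, n = 3), against 1.17 CPM over the summed input libraries. It had 22, 20 and 29 counts in input, 0, 2 and 2 in Ψ-IP and 0, 3 and 2 in flow-through. A 29-nt locus at chr2:92594806-92594834 on the plus strand was at 13.7 ± 0.555 CPM, and had 26, 14 and 28 counts in input, or 1.12 CPM over the summed libraries. The third, 27 nt at chr10:62687203-62687229 on the plus strand and antisense to an intron of Stox1, was at 11.1 ± 0.684 CPM. Its input level was 1.27 CPM over the summed libraries. At the other end, 21 members (10.6%, against 4.53%) had no count in any of the 6 mock-treated and CMC-treated libraries. The 3 of these with the most input counts were a 34-nt locus at chr17:27321138-27321171, a 32-nt locus at chr9:54223529-54223560 in an intron of Cyp19a1, and a 26-nt locus at chr2:92591839-92591864. They had 108, 102 and 86 input counts, and the first is longer than any locus in the mock-treated files.

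Treatment with CMC was the comparison in which members could be tested, because the rule used none of its 6 libraries. Of the 198 members 82 had more than 20 counts over these libraries and were tested, with all 556583 such loci, by edgeR's quasi-likelihood test. At an adjusted p-value under 0.01, 2 members were lower with CMC (0.654% of all loci tested were) and 1 was higher (1.07% of all loci). With the replicate number as a block 3 members were again called, while 1.03% of all loci were lower and 1.24% higher. The share of all loci lower was 0.294% without CMC-treated replicate 2. An unadjusted p-value under 0.05 was reached by 12 members (14.6%), and by 14.03% of all loci, so that members were close to the background. The median log2 fold change was -0.14 over the members tested and 0.00 over all loci, with 50 members below 0 and 32 above. Summed over all 198, members had 109 ± 3.28 CPM with mock treatment and 96.9 ± 4.999 CPM after CMC (SD over 3 libraries). Much of this lay at the 3 members with most mock-treated reads, at chr12:98400222-98400249, chr2:92594806-92594834 and chr10:62687203-62687229. They went from 15.0, 13.7 and 11.1 CPM with mock treatment to 9.61, 13.2 and 8.82 CPM after CMC. The difference between the sums was not tested.

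The member that rose was a 26-nt RNA at chr11:107995811-107995836 on the plus strand, antisense to an intron of Prkca, which encodes protein kinase C alpha. It had 4, 8 and 1 counts in mock-treated and 53, 21 and 16 in CMC-treated libraries, with no overlap between the groups. The log2 fold change was 3.08 (standard error 0.40, edgeR adjusted p = 7.05e-07). A 27-nt member with the same 5′ end had 1, 0 and 1 counts in mock-treated and 4, 1 and 3 in CMC-treated libraries, too few to be tested. In input the 26-nt RNA had 107 counts and the other loci at its 5′ end had 410 together, 67 of them from the 27-nt member.

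The members that fell were the 28-nt locus on chromosome 12 described above and a locus in Elfn2, the gene of an extracellular leucine-rich repeat protein. The former had 556, 840 and 600 counts in mock-treated and 495, 225 and 257 in CMC-treated libraries, which is 15.0 ± 0.613 and 9.61 ± 0.443 CPM. Its log2 fold change was -0.70 (standard error 0.13, edgeR adjusted p = 0.000413). The latter was a 27-nt RNA from an untranslated region of Elfn2, at chr15:78669793-78669819 on the minus strand, with 35, 51 and 39 counts in mock-treated and 21, 3 and 10 in CMC-treated libraries. Its log2 fold change was -1.54 (standard error 0.31, edgeR adjusted p = 0.00122), and without CMC-treated replicate 2, the library with 3 counts, the log2 fold change was -1.24 and the adjusted p 0.0237. Both members were the smaller part of the reads at their 5′ ends. In mock-treated libraries the other loci at these ends had 9647 and 5478 counts, beside 1996 and 125 at the members. The calls concern these lengths only.

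**Figure D5:**
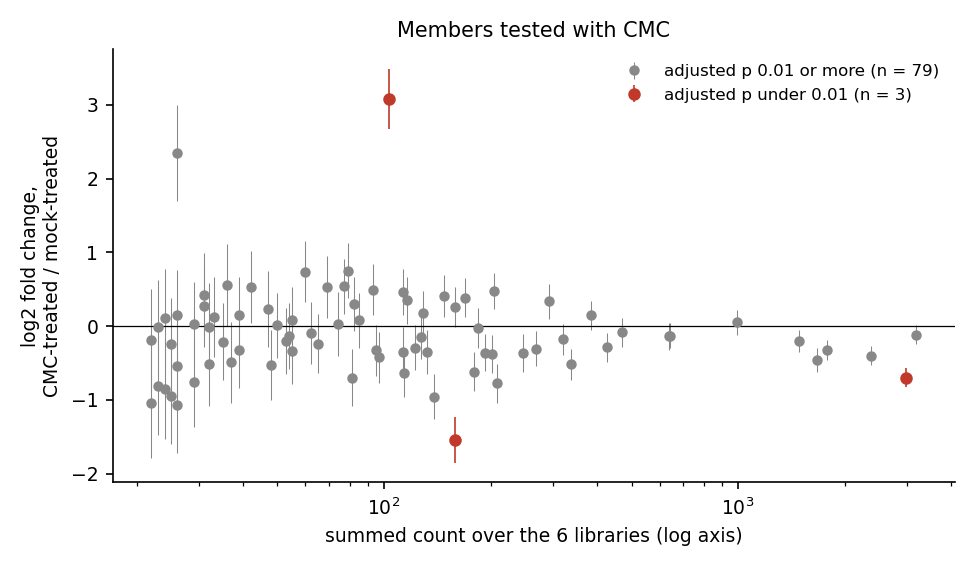
Log2 fold change between CMC-treated and mock-treated libraries against the summed count over the 6 libraries (log axis) for the 82 members tested, with bars of 1 standard error. Of these, 3 passed an adjusted p of 0.01 (red), 1 higher and 2 lower with CMC.

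Other members did not pass the test. The second-highest log2 fold change, 2.35, was at a 27-nt locus on the plus strand at chr2:92575061-92575087, singled out after its values were seen, with 1, 3 and 1 counts in mock-treated and 10, 7 and 4 in CMC-treated libraries (edgeR adjusted p = 0.0322). Its 21 CMC-treated counts, beside 5 mock-treated ones, took it past the filter of more than 20, so its value and rank are a description only. Among the 32 with an average of at least 20 counts, the highest log2 fold changes were 0.48 at chr7:52908713-52908738 (adjusted p = 0.371) and 0.41 at the 19-nt locus chr13:50371043-50371061 (adjusted p = 0.577) by edgeR. Among the same 32 members, the lowest value beside the Elfn2 locus was -0.95 at chr5:113353230-113353254, a 25-nt form of the abundant piRNA named above (edgeR adjusted p = 0.07). The 29-nt and 27-nt loci at high mock-treated levels on chromosomes 2 and 10 had -0.11 and -0.40 (edgeR adjusted p = 0.777 and 0.103). Of the 19-nt members 11 were tested, with log2 fold changes between -0.77 and 0.46 and a median of -0.02, and the lowest edgeR adjusted p was 0.106. The other 116 members had too few counts to be tested.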

How the data were processed

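The deposited values are raw read counts per genomic interval and strand, in 1 file per library. The authors clipped adaptors with Cutadapt, kept reads of 14 to 44 nt, set tRNA fragments aside, mapped the rest to mm10 with Bowtie2 allowing up to 3 mismatches and intersected them with repeats using bedtools. They then intersected these reads with known piRNA clusters of mm10 to obtain the piRNA reads. Counts were joined by locus, with a missing locus taken as 0 and starts converted to count from 1. The members and the groups of loci compared were chosen with earlier results of these data known. CPM are counts scaled to a library total of 1000000. CMC-treated was tested against mock-treated in R 4.3.3 with edgeR 4.0.16 (TMM, quasi-likelihood, loci with more than 20 counts, Benjamini-Hochberg adjustment over all of them); DESeq2 1.42.0 was an alternative. The fit was tested on simulated data. Standard errors were taken from the fold change on the log2 scale and the root of the F statistic. Annotation and sequence came from GENCODE vM21 (BEDTools 2.31.1). No 2 mock-treated and no 2 CMC-treated libraries agreed within sampling noise (chi-square per degree of freedom from 3.2 to 6.9). Named members were the 6 with most input, those called or most changed with CMC, those highest or absent in mock-treated libraries, the top of the largest blocks and overlapping groups, up to 8 with a sequence, and those at the limits of the rule. The 19-nt loci and their partner distances were singled out after the values were seen.

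Same-numbered mock-treated and CMC-treated libraries deviated together (correlations of 0.131, 0.156 and 0.303 over 87515 loci with an average above 50 counts), although the labels do not state a pairing, and with an average above 10 counts 2 of the 3 were below 0.1 (0.067, 0.087 and 0.193).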

Additional observations from a re-analysis of the deposited data

How the results depend on the processing

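The number of members calls for most care. It was 34 with limits of 3 in place of 6 counts, 99 with the limits scaled to input depth, and 5 with an input minimum of 120, and leaving out 1 of the 9 libraries gave 105 to 485 (105 without input replicate 1, 485 without input replicate 2, 331 and 304 without flow-through replicates 2 and 3). Shares moved less. With the input minimum of 120, whose 5 members allow little precision, the share with a mock-treated count was 100%, the share with a recovered locus at the same 5′ end 100%, the share in repeats 20% and that of 19-nt loci 0%. With limits of 3 the share at 29 to 31 nt was 23.5%, and it was 31.9 to 42.1% when 1 library was left out. Asking for a count in each mock-treated library gave 57.6%, and for the shared 5′ end a distance of up to 1 nt gave 97% and more than 12 counts 81.3%. With partners of 1 or more input counts, chosen after seeing the data, 90.9% of 19-nt members had the opposite-strand and 86.4% the same-strand partner, against 79.3% and 86.7% of other 19-nt loci.

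With the replicate number as a block, 3 members were called with CMC, as without it, and 3 were called under each other normalization and filter tried and by DESeq2. Leaving out 1 library gave 2 to 4, with 2 without CMC-treated replicate 2 and 4 without CMC-treated replicate 3. No call at a named member changed with the block. Over all loci tested, the share lower with CMC was 0.654%, 1.03% with the block, 1.58% among loci with more than 100 counts, 0.101% with no filter, and 0.294 to 1.04% when 1 library was left out (0.305% without mock-treated replicate 2, 0.294% without CMC-treated replicate 2 and 1.04% without CMC-treated replicate 1). The share higher was 1.07%, 1.24% with the block, 1.92% among loci with more than 100 counts and 0.187% with no filter. By DESeq2 it was 0.651%, and it was 0.722 to 1.14% when 1 library was left out.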
